A study of Rattus norvegicus with 12 samples.

Results

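The rat gene annotation behind these counts lists 32883 genes, and 9166 of them carry no gene symbol but the name of the genomic clone or contig on which they were predicted. From these, 8 were selected on their place among the leading genes of hepatocyte clusters in these data: AC134224.3, AC134224.1, AABR07048482.1, AABR07026377.1, AABR07004530.1, AABR07069728.1, AABR07069733.1 and AABR07048475.1. Their height in hepatocytes and in nuclei is therefore what chose them, and it is given below as a description without a test. All 8 were measured in the libraries of nuclei, of cells and of tissue sections. The study set out to map the cells of the healthy male rat liver in 2 inbred strains, Dark Agouti (DA) and Lewis (LEW). Total liver homogenate (TLH) cells, freed with collagenase, came from 2 DA and 2 LEW rats with 10x Genomics 3′ version 2 chemistry, and their age is given as 8 to 10 weeks by the labels and otherwise by the study's methods. Nuclei, extracted from snap-frozen liver with a detergent and salt buffer, came from a further 2 DA and 2 LEW rats with version 3 chemistry. Immune-enriched cells, washed again, came from 1 rat of each strain with version 3 chemistry, and 2 Visium sections came from Wistar liver. No age is given by the labels for the nuclei, the immune-enriched cells or the sections.

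A clone name says only that no symbol had been assigned when the annotation was made, so the products of these 8 genes are not known from the files. Nuclei hold RNA that is still being made or spliced and long RNAs that stay in the nucleus, whereas whole cells are dominated by cytoplasmic mRNA, which in hepatocytes codes largely for secreted plasma proteins. Hepatocytes also divide their work along the lobule: those near the portal vein make glucose and urea, and those around the central vein make glutamine and hold most of the cytochromes P450. Transcripts of hepatocytes can thus be placed by compartment and by zone even where their product is unknown.

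The order of the gene list places the 8 among named genes. AC134224.1 (ENSRNOG00000062127) and AC134224.3 (ENSRNOG00000062158) follow another gene of the same clone, AC134224.2, and come before Frmd8. AABR07026377.1 (ENSRNOG00000061180) lies between Mrps31, a mitochondrial ribosomal protein, and Slc25a15, the mitochondrial ornithine carrier of the urea cycle. AABR07048475.1 (ENSRNOG00000047520) is the row before the zinc finger gene Zfp37, and AABR07048482.1 (ENSRNOG00000033415) comes 2 rows after it. AABR07004530.1 (ENSRNOG00000056445) is 6 rows from Cyp2c6v1, a cytochrome P450. In the RefSeq gene table the named genes on either side of it lie on different chromosomes, so whether it lies near Cyp2c6v1 is uncertain. AABR07069728.1 (ENSRNOG00000058251) is the row after LOC680406, and AABR07069733.1 (ENSRNOG00000058081) lies 4 rows before Robo4. Of the 8, 0 matched an entry of the RefSeq gene table. Whether reads were shared with near-identical copies or with overlapping neighbours is unknown, so each count is uncertain to that extent.

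The libraries held 8039397 to 15186970 unique molecular identifiers (UMIs, each counting 1 captured RNA molecule) for nuclei, 61441846 to 92484173 for TLH cells, 48255870 and 60005133 for immune-enriched cells, and 34449562 and 34827603 for the sections. Filters on UMIs and on the mitochondrial share kept 2205 to 5262 nuclei and 3844 to 7112 TLH cells a library, and 1163 and 2677 immune-enriched cells. Clusters built without the 8 genes and named from marker lists gave 11232 hepatocyte-like nuclei in 23 clusters, 16178 hepatocyte-like TLH cells in 6 clusters and 1360 hepatocyte-like immune-enriched cells. Pairs of nuclei libraries shared between 8 and 24 kept barcodes, each pair more than the 3.84 to 10.2 of an even draw from the version 3 barcode list, whose size is not in the files, and barcode lists of the cells were not used here. Levels are given as CPM, the UMIs of a gene over the summed barcodes of a library after scaling every sum to the same total, with 1 value a rat.

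AC134224.3 was by far the most abundant of the 8. In hepatocyte-like nuclei it reached 52495 CPM in DA-1, 48114 in DA-2, 32685 in LEW-1 and 79957 in LEW-2, above Alb, the mRNA of serum albumin, in DA-1 (31827 CPM), DA-2 (31924) and LEW-2 (27934) and below it in LEW-1 (44869). These means hide a split between barcodes. AC134224.3 was at 0 UMIs in 46.3% of hepatocyte-like nuclei and made up at least 2% of the UMIs in 41.1% of them, and 1.75% fell between 0.5% and 2%. Nuclei with at least 2% are called AC134224.3-rich here, a limit set with the distribution in view. The rich share was 49.97% in DA-1, 45.5% in DA-2, 26.0% in LEW-1 and 63.5% in LEW-2, with Clopper-Pearson intervals (95%, for counting error alone) of 47.7 to 52.2%, 43.4 to 47.6%, 24.8 to 27.2% and 61.4 to 65.5%. LEW-1 stood apart with the lowest share, and results that rest on it are given without it as well. Rich nuclei held a median of 2781 UMIs and a median mitochondrial share of 2.92%, the other hepatocyte-like nuclei 1291 UMIs and 3.501%. Alb, scaled without AC134224.3, was at 16859, 13614, 18048 and 13612.5 CPM in the rich nuclei of DA-1, DA-2, LEW-1 and LEW-2. In the other hepatocyte-like nuclei it was at 60166, 65191, 65367 and 74940 CPM. Kept barcodes of these libraries are called nuclei here, and whether those poor in AC134224.3 held a nucleus was not tested. The split also followed the clusters: of the 23 hepatocyte-like clusters, those with many rich nuclei carried 49401 to 132775 CPM of AC134224.3, whereas clusters 7 and 20 carried 108 and 173 CPM.

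**Figure D1:**
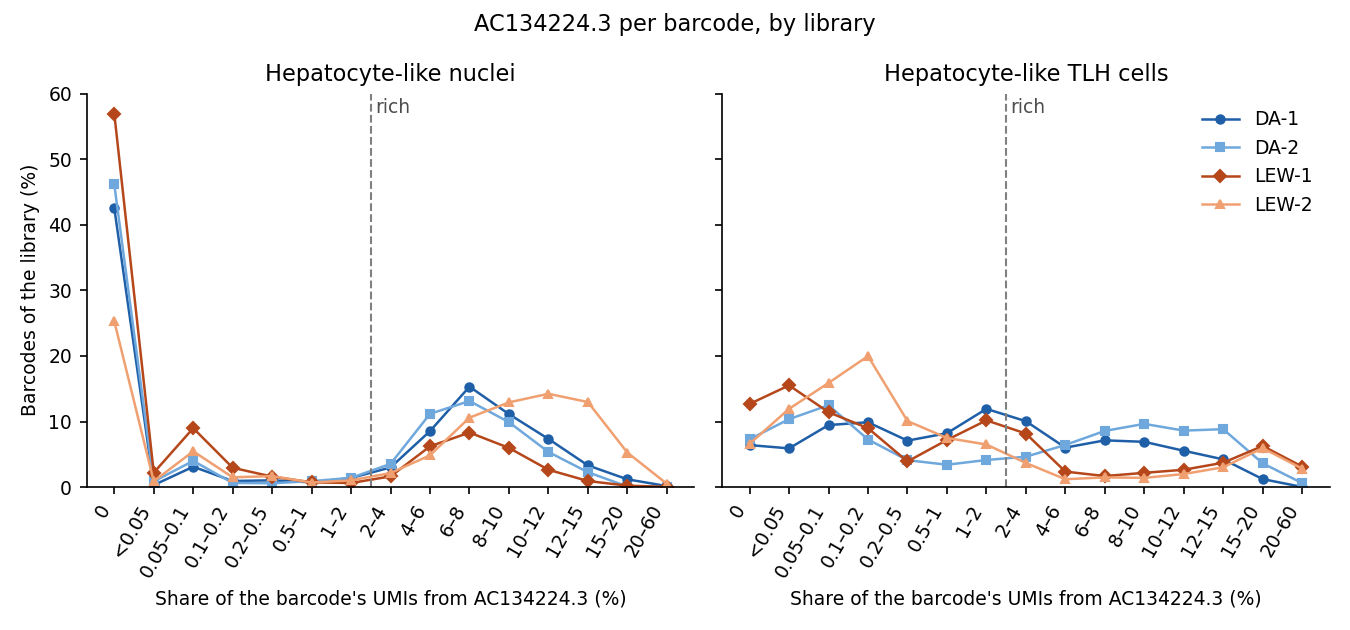
Share of hepatocyte-like barcodes of each library (vertical axis, %) by the share of their UMIs that came from AC134224.3 (horizontal axis, %, unequal bins), in nuclei and in TLH cells, with 1 line a rat and a dashed line at the 2% limit. In nuclei 46.3% of barcodes sit at 0 and 41.1% above the limit with 1.75% between 0.5% and 2%, while in TLH cells 14.7% lie in that range.

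TLH cells were split less sharply. Of the hepatocyte-like cells 41.1% were AC134224.3-rich in DA-1, 51.0% in DA-2, 30.2% in LEW-1 and 21.6% in LEW-2, and 14.7% lay between 0.5% and 2%. When the cells of each rat were ordered by mitochondrial share and cut into tertiles, 3 equal groups, the tertile with the lowest share held 67359, 99418, 67375 and 57172 CPM of AC134224.3, scaled to non-mitochondrial UMIs, in DA-1, DA-2, LEW-1 and LEW-2. The tertile with the highest share held 19972, 17600, 20520 and 16058. Every lowest tertile was above every highest tertile. AABR07048482.1 followed the same order within each rat, from 97.9 to 14.6 CPM in DA-1, from 386 to 47.4 in DA-2, from 50.6 to 8.13 in LEW-1 and from 341 to 42.6 in LEW-2. AABR07004530.1 also did so, with 22.1 against 5.95 in DA-1 and 21.5 against 8.70 in LEW-2, as did AABR07069733.1, with 63.4 against 54.4 in DA-1. AC134224.1, at 108 against 145 in DA-1 and 230 against 89.0 in DA-2, had no common order. Nor had AABR07026377.1, at 63.7 against 89.2 and 215 against 90.5 in the same rats. The same held for AABR07069728.1, at 24.4 against 29.7 and 19.4 against 10.5, and AABR07048475.1, at 18.0 against 28.4 and 10.1 against 6.52. From the lowest to the highest tertile the rich share was 72.4, 22.0 and 29.0% in DA-1 and 88.8, 41.8 and 22.2% in DA-2. In LEW-1 it was 42.9, 18.2 and 29.3%, and in LEW-2 35.8, 13.1 and 15.8%.

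Most UMIs of the other members lay in the rich nuclei. With AC134224.3 left out of the totals, AABR07026377.1 was at 1597 CPM in the rich and 23.8 CPM in the other hepatocyte-like nuclei of DA-1, at 618 and 13.3 in DA-2, at 435 and 4.19 in LEW-1 and at 281 and 4.76 in LEW-2. The rich nuclei were above the others in all 4 rats, by a log2 ratio of 5.44 to 6.39. AC134224.1, whose clone holds the gene that drew the line, differed by 5.57 to 6.91, AABR07004530.1 by 4.94 to 6.95, AABR07069733.1 by 4.40 to 5.23 and AABR07069728.1 by 3.97 to 5.44. AABR07048482.1 ranged from 2.59 in DA-2 to 5.69 in LEW-2, and AABR07048475.1 from 2.16 in LEW-1 to 4.76 in LEW-2. Outside the rich nuclei AC134224.1 was at up to 183 CPM and AABR07048482.1 at up to 141 CPM. The median of 8056 genes was 1.25 on this scale, so most of these genes, and not the members alone, were higher in the rich nuclei. The median of 10 hepatocyte transcription factors was 2.74, and that of 11 secretory mRNAs was -1.60, with Alb between -2.46 and -1.84. In TLH cells the same split gave 2.80 to 5.38 for AABR07048482.1, a range that overlaps that of nuclei. AABR07026377.1, at 1.91 to 3.87, and AABR07048475.1, at -0.04 to 0.98, lay below their ranges in nuclei. The median of 5838 genes was 0.05 in TLH cells, and that of the secretory mRNAs 0.09.

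Hepatocyte-like nuclei were then set against hepatocyte-like TLH cells of other rats. The 2 kinds differ in chemistry, sequencer and preparation as well as in compartment, and these cannot be told apart. Pooled over the rats, Alb was at 21323 and 20805 CPM in TLH clusters 0 and 1, with 6110 and 4578 of the hepatocyte-like cells. Hepatocyte-like clusters 3, 4, 5 and 15 held 31485 to 60315 CPM. Clusters of other classes held 11742.5 (macrophage-like cluster 6) to 46192 CPM (endothelial-like cluster 16), with 19621 in endothelial-like cluster 2. The part of RNA freed from other hepatocytes in the TLH levels was not tested. AC134224.1 showed the widest gap of the 8, at 5140, 6287, 2786 and 7787 CPM in nuclei of DA-1, DA-2, LEW-1 and LEW-2 against 82.2, 117, 109 and 95.5 CPM in the cells. The lowest library of nuclei lay far above the highest of cells, and the log2 ratio of the means, with 1 CPM added, was 5.75, at percentile 99.9 of 7457 genes. AABR07004530.1 was at 154, 148, 243 and 230 CPM in nuclei and 12.3, 6.56, 10.995 and 12.2 CPM in cells, a ratio of 4.08 without overlap. AABR07026377.1 was at 937, 366, 171 and 189 CPM against 49.4, 115, 21.2 and 19.4 CPM, a ratio of 2.99. AABR07069728.1 at 2.91 and AABR07069733.1 at 1.94 also did not overlap.

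The other 3 members overlapped between nuclei and TLH cells. AABR07048482.1 was at 1839, 482, 119 and 1598 CPM in nuclei and 44.9, 169, 23.3 and 154 CPM in cells, a ratio of 3.35, and nuclei of LEW-1 lay below cells of DA-2 and LEW-2. AABR07048475.1 was at 64.9, 36.8, 9.82 and 92.2 CPM against 18.6, 7.97, 7.24 and 12.2 CPM, a ratio of 2.06. AC134224.3 was at 31299, 44923, 33332 and 28699 CPM in the cells, where the mean of 34563 CPM compared with 53313 CPM in nuclei, a ratio of 0.63 that is below the median of all genes, 0.82. The lowest library of nuclei was thus above the highest of cells for 5 of the 8, beside 55.2% of all genes, 65.8% of clone-named genes and 54.8% of the others. Without nuclei of LEW-1 it was 8 of 8, but the share of all genes was not counted there, so nothing is read from it. Between AC134224.3-rich barcodes of both kinds the ratio of AC134224.3, whose own level chose them, was -0.20, from which nothing on nuclei against cells is read, and the count was again 5 of 8, beside 59.6% of all genes, 71.3% of clone-named genes and 59.2% of the others. The share of the 8 was thus near that of all genes. By size, the ratios exceeded the median of 1.91 over clone-named genes in 7 members and fell below it in AC134224.3. On the same scale the median was 1.85 for the 10 transcription factors, of which 8 lay above without overlap, and -0.68 for the 11 secretory mRNAs, of which 2 lay above and 4 below. Of 6 RNAs listed as nuclear-retained, only Nlrp6 was in the gene list, and it did not reach 10 CPM.

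**Figure D2:**
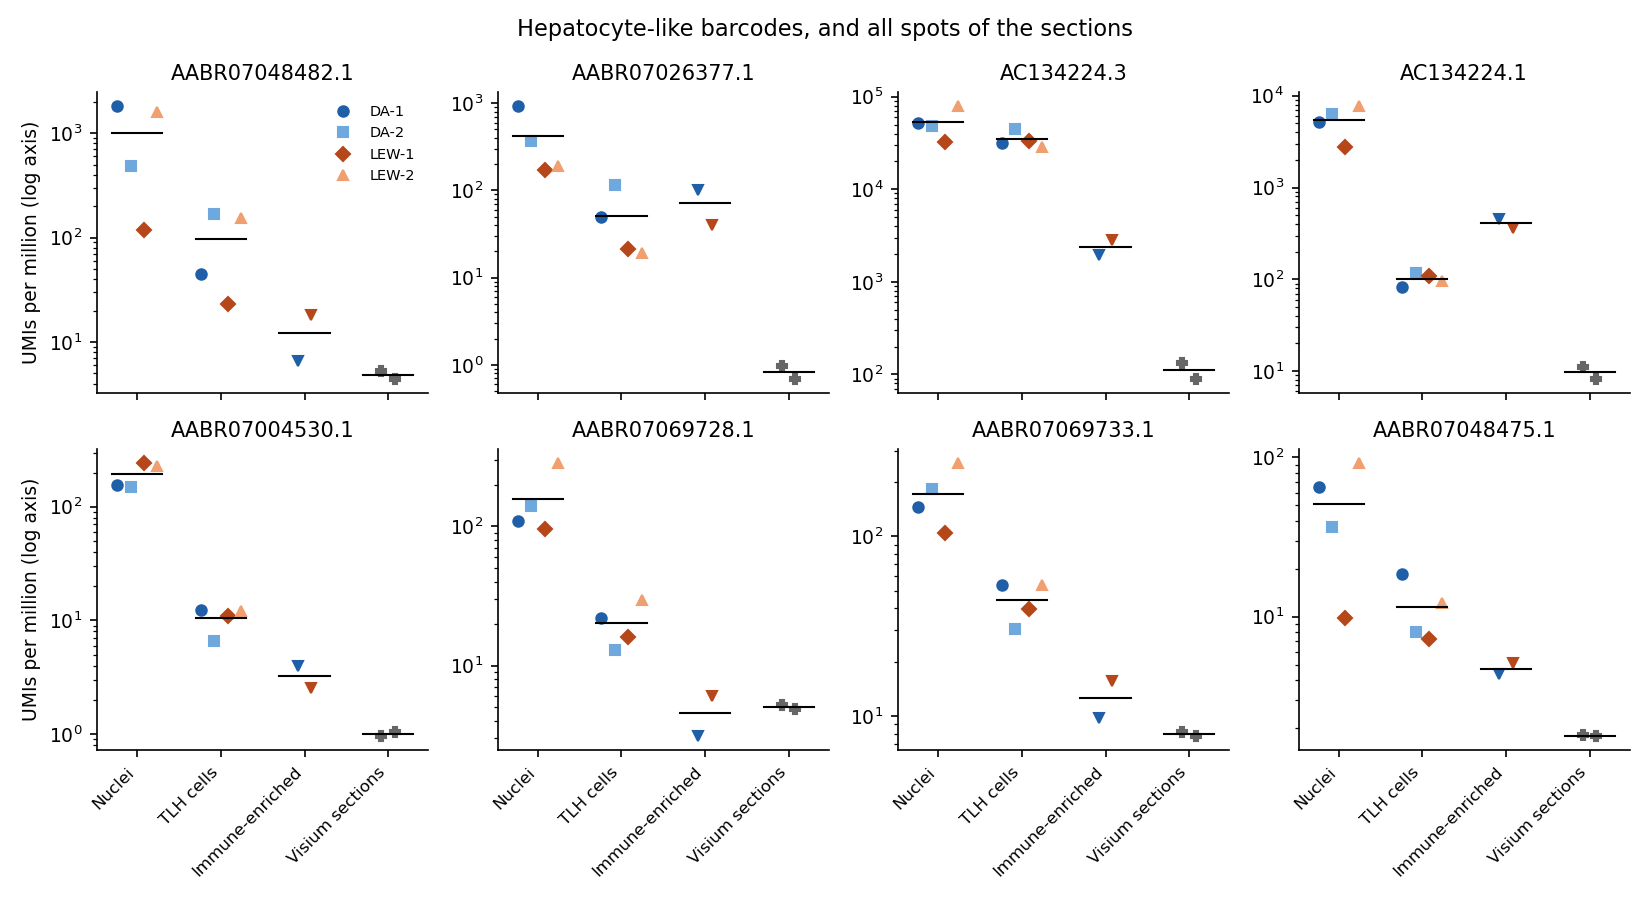
Level of each of the 8 genes in CPM (vertical log axes, which differ between panels) in hepatocyte-like nuclei, TLH cells and immune-enriched cells and over all spots of the Visium sections, with 1 point a library and a line at the mean. Nuclei are above TLH cells without overlap for 5 of 8 genes, AC134224.3 overlaps, and AC134224.1 averages 5500 in nuclei and 101 in TLH cells.

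The 2 abundant genes of the clone did not keep 1 ratio across the kinds of library. AC134224.3 had 7.65 to 11.7 UMIs for each UMI of AC134224.1 in hepatocyte-like nuclei, 4.38 (DA) and 7.66 (LEW) in hepatocyte-like immune-enriched cells and 12.1 and 10.9 over all spots of the sections, but 300.5 to 384 in hepatocyte-like TLH cells. The TLH libraries were the only ones made with version 2 chemistry and, by the study's methods, the only ones run on their sequencer, which cannot be told apart. The wide gap of AC134224.1 between nuclei and TLH cells moves with this ratio. Its cause was not tested. AC134224.2 was also lower in TLH cells, at a mean of 419 CPM in nuclei and 5.16 CPM in TLH cells. Against immune-enriched cells of the nuclei's own chemistry, 1 rat a strain, AC134224.1 was at 449 CPM in DA and 365 CPM in LEW, a ratio of 3.75, and AC134224.3 was at 1969 and 2798 CPM, a ratio of 4.48. All 8 then lay higher in nuclei without overlap, beside 67.6% of all genes, 83.3% of clone-named genes and 67.1% of the others, with ratios from 2.53 for AABR07026377.1 to 6.25 for AABR07048482.1. These immune-enriched hepatocyte-like cells were deep, with a median of 32806 UMIs in those that were not AC134224.3-rich, and the rich ones, 90 of 1360, had a median of 2195 UMIs. In the 62 rich ones of LEW, AABR07048482.1 stood at 977 CPM and AABR07026377.1 at 795 CPM, and in the other 1140 at 12.8 and 36.5 CPM.

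Cell types were compared next, as a description, since height in hepatocytes chose the 8. Over all barcodes AC134224.3 averaged 53313 CPM in hepatocyte-like, 78076 CPM in endothelial-like, 78332 CPM in macrophage-like and 66549.5 CPM in mesenchymal-like nuclei, and AC134224.1 5500 CPM in hepatocyte-like and 7610 CPM in endothelial-like nuclei. Of the endothelial-like nuclei 97.8% were AC134224.3-rich, of the macrophage-like 95.7% and of the mesenchymal-like 90.8%, against 41.1% of the hepatocyte-like. Among rich nuclei of clusters with a median of at most 1500 UMIs, AC134224.3 averaged 65532 CPM in endothelial-like, 62837 CPM in macrophage-like and 58177 CPM in mesenchymal-like nuclei, which is 77.0%, 73.8% and 68.4% of the 85102 CPM in rich hepatocyte-like nuclei. AC134224.1 stood at 72.3%, 69.1% and 67.4% of the hepatocyte level of 8693 CPM. The order of the classes thus turned with the choice of nuclei, which rests on the level of AC134224.3 itself, and with the deeper clusters of other classes, which stood at 105% of the hepatocyte level for AC134224.3 and at 100.1% for AC134224.1. Both genes were abundant in each of these 4 classes.

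The other 6 differed more between classes where the deeper clusters were left out. In endothelial-like nuclei of the same clusters, AABR07026377.1 was at 9.12 CPM in DA-1, 5.84 in DA-2, 23.1 in LEW-1 and 62.0 in LEW-2, against 1467, 572, 402 and 251 CPM in rich hepatocyte-like nuclei. Every hepatocyte value was above every endothelial value, with the mean at 3.71% of the hepatocyte mean. AABR07048482.1 stood at 4.47% of the hepatocyte mean, AABR07048475.1 at 3.81%, AABR07069733.1 at 7.25%, AABR07004530.1 at 10.0% and AABR07069728.1 at 10.9%. In macrophage-like nuclei the 6 stood at 11.2 to 31.9% and in mesenchymal-like nuclei at 9.09 to 32.0%. With the deeper clusters these shares were 43.5 to 60.1% in endothelial-like, 57.8 to 73.5% in macrophage-like and 30.3 to 58.4% in mesenchymal-like nuclei. Alb, which only hepatocytes should make, was at 133%, 111% and 138% of the level of rich hepatocyte-like nuclei in these 3 classes. These nuclei held medians of 1220, 1326 and 1274 UMIs, against 2781 in the hepatocyte-like, and the part of free hepatocyte RNA, of which Alb is a tracer, in the levels of the 6 was not tested.

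Clusters 25, 26 and 27, named endothelial-like, mesenchymal-like and macrophage-like, were deeper, with medians of 4023, 1894 and 5206 UMIs, and their 353 rich nuclei carried the 6 at 73.5 to 95.2% of the level in rich hepatocyte-like nuclei. There AABR07048482.1 was at 2018, 556, 253 and 2400 CPM in DA-1, DA-2, LEW-1 and LEW-2, beside 2823, 692, 265 and 2120 CPM in the hepatocyte-like nuclei of the same rats. Whether such barcodes held more than 1 nucleus was not tested, and 10.0%, 11.8% and 3.6% of their barcodes were among those with the highest Scrublet score, beside 53.5% in hepatocyte-like cluster 24, 49.3% in hepatocyte-like cluster 11 and 17.6% in endothelial-like cluster 23. With all barcodes of each class, 0 of the 8 were highest in hepatocyte-like nuclei in every library, beside 1.5% of 11175 genes. In AC134224.3-rich nuclei the count was 5, beside 3.38% of genes, and these were AABR07048482.1, AABR07026377.1, AC134224.1, AABR07004530.1 and AABR07069733.1. Without the deeper clusters it was 7, beside 4.88%, with AC134224.3 and AABR07069728.1 added, so that AC134224.3 and AC134224.1 were among them despite their high level in the other classes. Without nuclei of LEW-1, where only 26.0% of hepatocyte-like nuclei were rich, it was 3 in place of 0 over all barcodes, beside 3.07%. Since height in hepatocytes chose the 8, nothing is read from these counts.

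**Figure D3:**
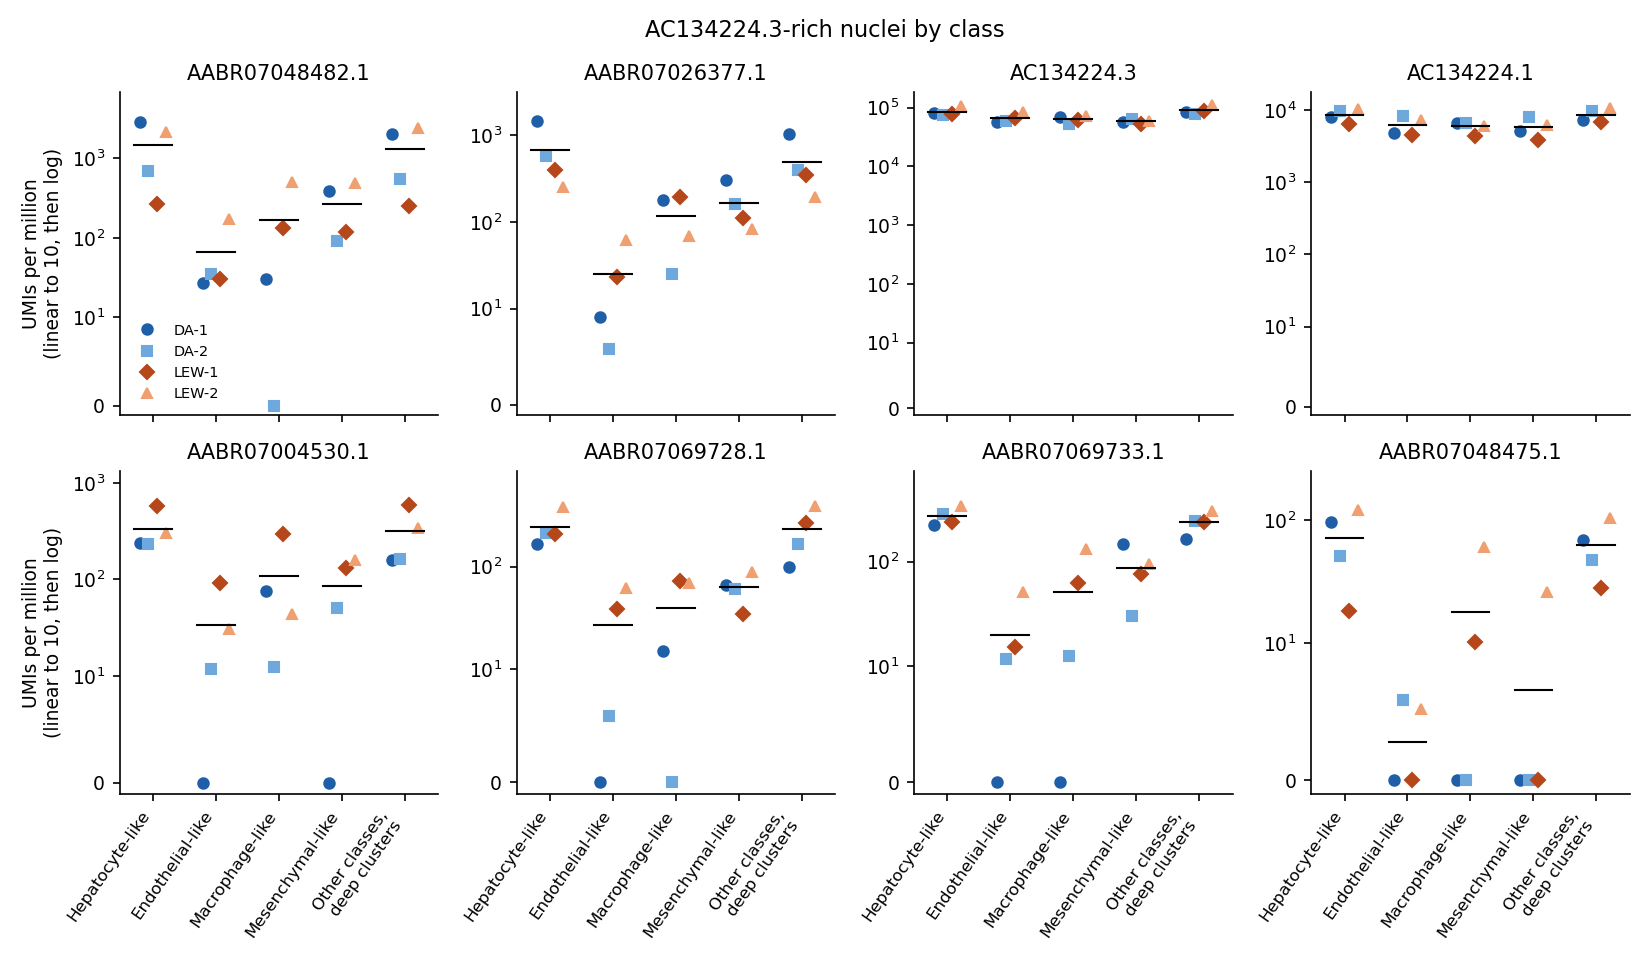
Level of each gene in AC134224.3-rich nuclei of 4 named classes and of the deeper clusters of other classes, in CPM (vertical axes linear to 10 and logarithmic above, scaled per panel), with 1 point a rat and a line at the mean. Endothelial-, macrophage- and mesenchymal-like nuclei are those of clusters with a median of at most 1500 UMIs, a limit not set for the hepatocyte-like. In them AC134224.3 stands at 68.4 to 77.0% and AC134224.1 at 67.4 to 72.3% of the hepatocyte mean, and the other 6 at 3.71 to 32.0%. The deeper clusters lie near the hepatocytes, and with them included the 6 stand at 30.3 to 73.5% in these classes.

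Zone was read from other genes. Each hepatocyte-like nucleus was scored by 13 periportal genes, such as Gls2, Sds and Hal of amino acid breakdown, less 12 pericentral genes, such as Glul, Cyp1a2 and Oat, and the nuclei of each rat were cut into tertiles. The hepatocyte clusters whose leading genes gave the 8 are themselves zoned, so the choice bears on zone in these nuclei, and counts of members are a description from which nothing is read. Over all hepatocyte-like nuclei, 4 of the 8 were higher in the pericentral tertile in all 4 rats, beside 14.9% of 7119 genes. AABR07048482.1 was at 2226, 936, 240 and 2451 CPM in the pericentral and 1577, 227, 56.0 and 950 CPM in the periportal tertile of DA-1, DA-2, LEW-1 and LEW-2, a mean log2 ratio of 1.496 ± 0.742 (SD, n = 4 rats). AABR07069728.1 differed by 1.45 ± 0.75, AABR07048475.1 by 0.88 ± 0.30 and AABR07004530.1 by 0.65 ± 0.44. AC134224.3, AC134224.1 and AABR07026377.1 were lower in the pericentral tertile in all 4 rats, by -0.81 ± 0.50, -0.86 ± 0.51 and -0.96 ± 0.50, beside 36.5% of genes. With a shorter list, the zone genes that the study names, these 3 were lower in 2 of 4 rats each, at 0.11 ± 0.63, 0.07 ± 0.57 and -0.03 ± 0.58. AABR07069733.1, at 0.04 ± 0.48 and higher in 2 of 4 rats with the longer lists, was at 1.01 ± 0.63 and higher in all 4 with the shorter one. The 4 pericentral members stayed higher in all 4 rats there, with AABR07048482.1 at 2.51 ± 1.40, but the share of all genes was not counted with the shorter list.

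Of 10 genes of known zone held out of the score, the 5 pericentral ones, such as Cyp2e1 at 1.57 ± 0.50, were higher in the pericentral tertile in all 4 rats. The 5 periportal ones were not all lower there: Pck1 was at -0.78 ± 0.37, Srd5a1 at -0.54 ± 0.56 and Hmgcs1 at -0.19 ± 0.18, but Orm1 at 0.18 ± 0.69 and Tf at 0.53 ± 0.63.

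The tertiles did not hold the same share of AC134224.3-rich nuclei. The share was 26.2%, 30.1%, 24.7% and 60.6% in the pericentral tertile and 89.9%, 78.6%, 42.2% and 80.8% in the periportal tertile of the 4 rats, and the median of all genes was -0.25. The tertiles were therefore drawn again within the rich nuclei alone, where the median of all genes was 0.00. There 5 members were higher in the pericentral tertile in all 4 rats, beside 13.6% of 7641 genes, again as a description. AABR07048482.1 stood at 4714, 1431, 559 and 3301 CPM in the pericentral and 1362, 170, 45.1 and 1067 CPM in the periportal tertile, and the log2 ratio was 2.52 ± 0.97 (SD, n = 4 rats). In each rat the middle tertile lay between, at 2251, 442, 190 and 1845 CPM. AABR07069728.1 was at 294, 385, 393 and 734 CPM against 91.5, 74.5, 71.4 and 121 CPM, a ratio of 2.26 ± 0.41, and its lowest pericentral value was above its highest periportal one. AABR07048475.1 followed at 1.86 ± 0.39, AABR07004530.1 at 1.45 ± 0.20 and AABR07069733.1 at 0.89 ± 0.14.

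On the same scale the genes held out of the score reached 1.61 ± 0.22 for Cyp2e1 and 1.47 ± 0.06 for Slc27a5, both pericentral. The 5 periportal ones were at -1.25 ± 0.59 for Srd5a1, -0.61 ± 0.70 for Orm1 with DA-1 at 0.016, -0.41 ± 0.14 for Hmgcs1, -0.37 ± 0.33 for Tf and -0.17 ± 0.15 for Pck1 with LEW-1 at 0.048. The ratios of AABR07048482.1, AABR07069728.1 and AABR07048475.1 were thus above that of Cyp2e1 on average, and the difference was not tested. AABR07026377.1 was lower in the pericentral tertile in every rat, at 1325, 493, 366 and 248 CPM against 1590, 644, 399 and 272 CPM, a ratio of -0.23 ± 0.12. So were 13.2% of 7641 genes, among which its mean ratio stood at percentile 18.9, so no trait of this gene is read from it. Of the row neighbours of AABR07026377.1, Slc25a15 had -0.25 ± 0.13 and Mrps31 0.07 ± 0.27. AC134224.3 was at -0.08 ± 0.19 and AC134224.1 at -0.12 ± 0.17, but these nuclei were chosen on the level of AC134224.3, with which AC134224.1 goes, so nothing on their zone is read from these values. Pooled over the rats, which differ in level and in their share of each cluster, the nuclei of cluster 12, which held 1095 CPM of Glul, carried 3224 CPM of AABR07048482.1, 782 CPM of AABR07004530.1 and 712 CPM of AABR07069728.1. Those of cluster 0, which held 2928 CPM of Sds and 17.2 CPM of Glul, carried 857, 225 and 95.0 CPM.

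**Figure D4:**
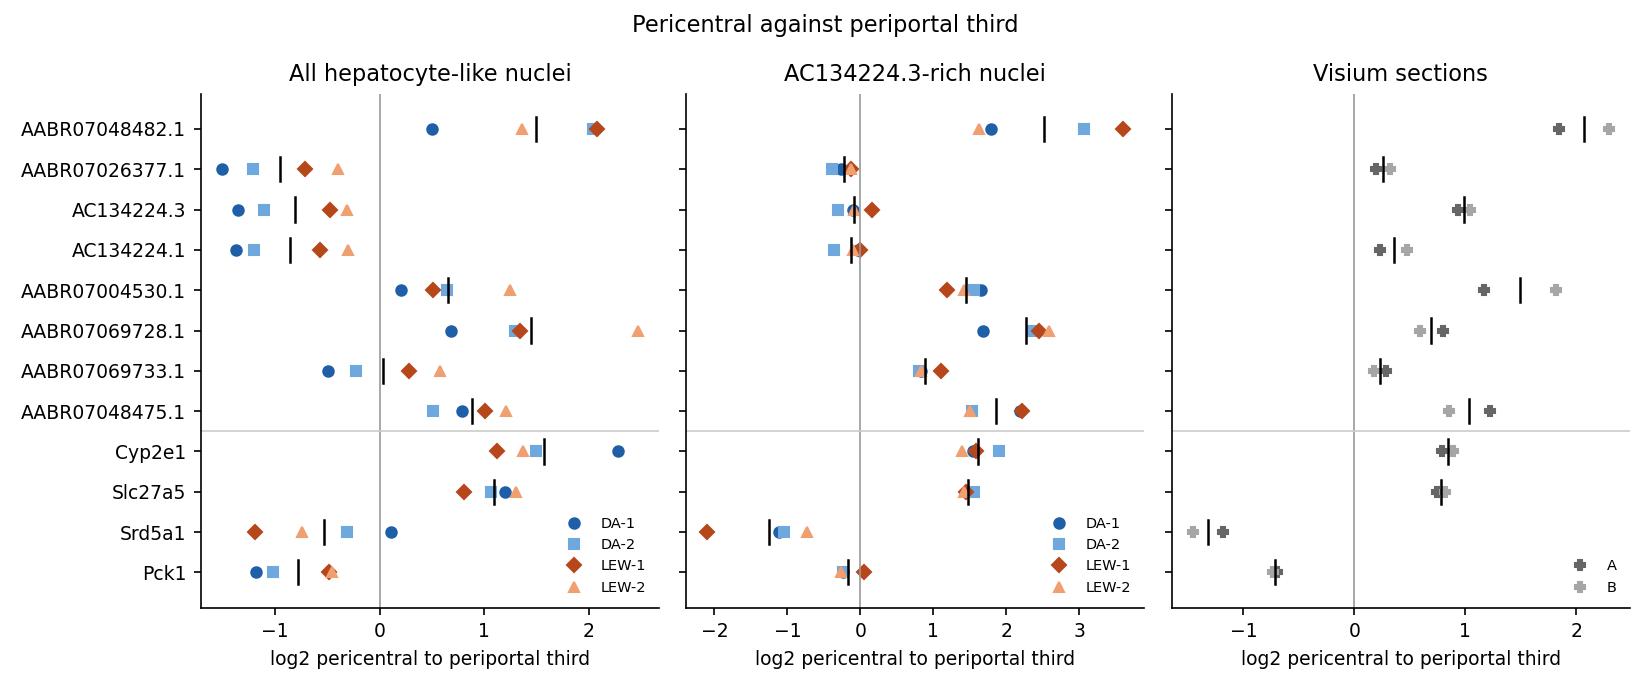
log2 ratio of the pericentral to the periportal tertile (horizontal axes, CPM plus 1) for the 8 genes and, below the line, 4 genes of known zone, in all hepatocyte-like nuclei, in AC134224.3-rich nuclei and on Visium, with 1 point a rat or section and a bar at the mean. In rich nuclei 5 members lie right of 0 in all 4 rats, AABR07026377.1 lies at -0.23, and on Visium all 8 lie right of 0.

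The Visium sections, of another strain, had no part in choosing the 8. A spot covers several cells, so fewer cells of a type and less RNA per cell cannot be told apart there. AC134224.3 was found in 68.4% of 2437 spots of section A and in 60.9% of 2404 spots of section B, at 134 and 89.2 CPM, far below its level in nuclei or cells. The others were sparse. AABR07069733.1 was in 10.5 and 10.4% of spots, AABR07048482.1 in 6.57 and 5.74%, AABR07069728.1 in 6.81 and 6.82%, and AABR07026377.1 in 1.19 and 0.998%, with 33 and 24 UMIs in all.

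When the spots of each section were cut into tertiles by the same score, all 8 were higher in the pericentral tertile of both sections, beside 33.7% of 9274 genes with a mean of at least 1 CPM (31% were higher in the periportal tertile of both). AABR07026377.1 did not reach that limit, and AABR07004530.1 stood at it, with 0.958 and 1.03 CPM over all spots of sections A and B. AABR07048482.1 had 114 UMIs in the pericentral and 26 in the periportal tertile of section A, and 108 and 16 in section B, at 10.3 and 10.1 CPM against 2.15 and 1.26 CPM. Its log2 ratio with 1 CPM added was 1.85 and 2.29. AABR07004530.1 had 22 against 4 UMIs and 27 against 0, with ratios of 1.17 and 1.82, and a tertile without a UMI is compatible with up to 3 counts. AABR07048475.1 had 38 against 11 and 30 against 14 UMIs, with ratios of 1.22 and 0.85. AC134224.3 was at 167 against 87.3 CPM and at 122 against 58.8 CPM, ratios of 0.93 and 1.04, beside 0.79 and 0.89 for Cyp2e1. AABR07069728.1 had ratios of 0.80 and 0.59, and AC134224.1 of 0.23 and 0.48, from 125 against 115 and 104 against 85 UMIs. For AABR07026377.1, 10 against 8 and 9 against 6 UMIs, and for AABR07069733.1, 101 against 89 and 91 against 94 UMIs, the counts did not allow a difference between tertiles to be read, and section B gave AABR07069733.1 the higher CPM in the tertile with fewer of its UMIs, whose spots held a median of 13261 UMIs against 15847.5. Over all hepatocyte-like nuclei AC134224.3 had stood at -0.81 ± 0.50. Since the sections gave 1 value each, no test was made.

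Strains were compared on the UMI sums of each rat with the quasi-likelihood test of edgeR, adjusted by Benjamini-Hochberg over all genes. Over the 8 libraries of nuclei and TLH cells, with the kind of library as a term, 1 of the 8 was called, beside 5.92% of 11560 genes. This was AABR07026377.1, at 937 and 366 CPM in DA and 171 and 189 CPM in LEW nuclei, and at 49.4 and 115 CPM in DA and 21.2 and 19.4 CPM in LEW cells. Within each kind both DA rats lay above both LEW rats. The log2 difference of LEW from DA was -1.94 ± 0.35 (SE, n = 4 rats a strain), with an edgeR adjusted p of 0.00665. In nuclei alone it was -1.87 ± 0.51 with an adjusted p of 0.134, and in TLH cells alone -2.01 ± 0.51 with an adjusted p of 0.159. With DESeq2 it was called in each kind alone, with adjusted p of 0.00440 in nuclei and 0.0340 in TLH cells. The call over both kinds was lost without nuclei of LEW-1 (edgeR adjusted p = 0.0926) and without those of LEW-2 (0.0550). In AC134224.3-rich barcodes the difference was -1.57 ± 0.42 with an adjusted p of 0.0796.

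Its row neighbour Slc25a15 was lower in LEW as well, at 4008 and 1756 CPM in DA nuclei and 802 and 764 CPM in LEW nuclei, and at 567 and 782 CPM against 369 and 362 CPM in TLH cells. Over both kinds the difference was -1.37 ± 0.32 with an edgeR adjusted p of 0.0220. Reads of the 2 adjoining genes may not be separable, which was not tested.

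**Figure D5:**
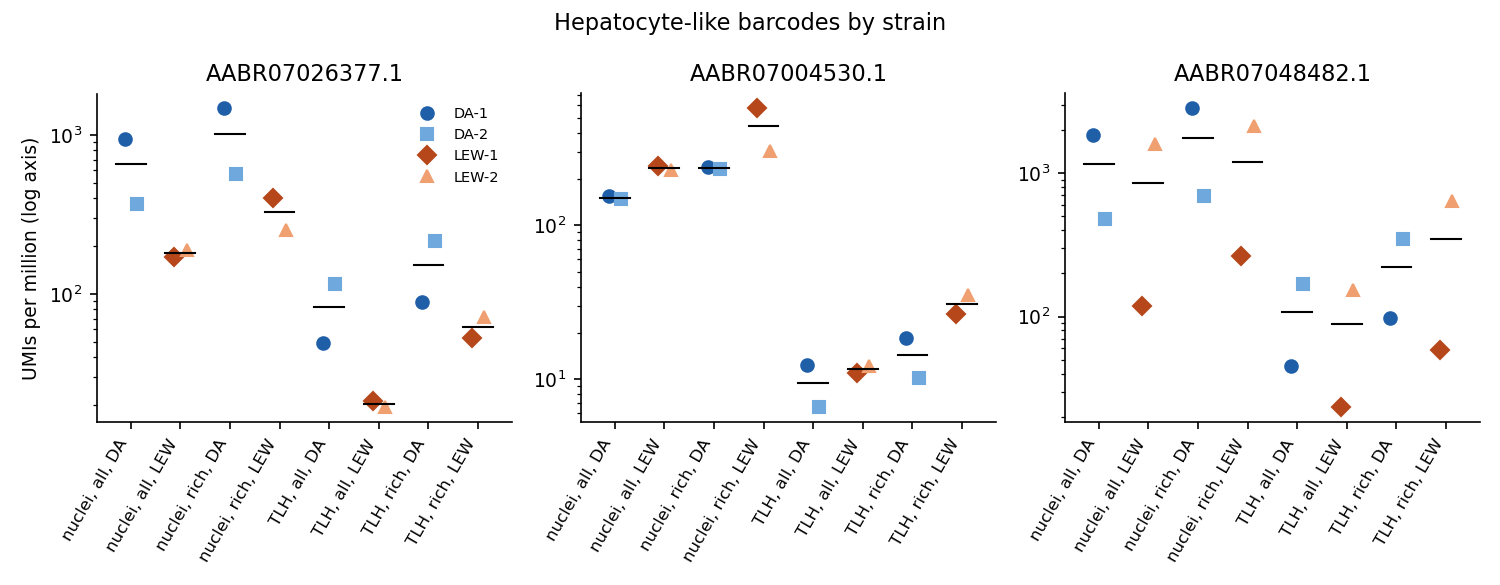
CPM (vertical log axes) of 3 members in hepatocyte-like nuclei and TLH cells, over all barcodes and over AC134224.3-rich barcodes, with 1 point a rat and a line at the strain mean. AABR07026377.1 is higher in DA than in LEW in every pairing of a kind with a set of barcodes, AABR07004530.1 is higher in LEW in nuclei, and AABR07048482.1 spreads within strains.

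AABR07004530.1 lay the other way, at 154 and 148 CPM in DA and 243 and 230 CPM in LEW nuclei. In TLH cells the strains overlapped, at 12.3 and 6.56 CPM in DA and 10.995 and 12.2 CPM in LEW. Over both kinds the difference was 0.53 ± 0.20 with an edgeR adjusted p of 0.149, and in AC134224.3-rich barcodes 0.94 ± 0.22 with an adjusted p of 0.0246, where 4.57% of 10527 genes were called. The rich nuclei held 239 and 232 CPM in DA against 573 and 305 CPM in LEW, and the rich TLH cells 18.4 and 10.2 against 26.6 and 35.1 CPM. Cyp2c6v1, the P450 gene 6 rows away, was also higher in LEW, at 1711 and 2005 CPM in DA nuclei against 3894 and 3581 CPM, with a difference over both kinds of 1.01 ± 0.21 and an edgeR adjusted p of 0.00907. None of the other 6 members was called over both kinds, with edgeR adjusted p between 0.368 and 0.957. In nuclei alone, where 1.23% of 10616 genes were called, and in TLH cells alone, where 4.39% of 9879 were, the tool called 0 of the 8, with 1 at an unadjusted p under 0.05 in each, and DESeq2 called 1 in each, AABR07026377.1. In rich barcodes the tool called 0 of the 8 in nuclei, beside 0.61% of genes, and 0 in TLH cells, beside 2.13%, with 1 and 3 at an unadjusted p under 0.05. For AABR07048482.1 the spread within strains was wide: its rats ranged among nuclei from 119 CPM in LEW-1 to 1839 CPM in DA-1, with the strains interleaved, and the difference of -0.43 carried an SE of 1.04. The interaction of strain and kind of library passed for 0 of the 8, with edgeR adjusted p of at least 0.789 and 0 at an unadjusted p under 0.05, beside 0.00865% of genes over all barcodes and 0.0095% in rich barcodes.

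Co-detection was read in nuclei thinned to 1000 UMIs, as the number of nuclei with both of 2 members over the number that their separate shares would give. Over all hepatocyte-like nuclei the ratio exceeded 1 in every library for all 28 pairs, with pooled values from 1.49 to 2.89. These ratios move with the split into rich and other nuclei, since each member was higher in the rich ones. Within rich nuclei 13 of 28 pairs remained above 1 in every library, but the pairs with AC134224.3, which all these nuclei held, could not exceed 1. Pairs of other genes were not counted, so nothing is read from the counts of pairs. The 10 pairs among AABR07048482.1, AABR07004530.1, AABR07069728.1, AABR07069733.1 and AABR07048475.1, the 5 that were higher in the pericentral tertile of rich nuclei, had pooled ratios from 1.16 to 1.55. AABR07004530.1 and AABR07048475.1 shared 98 nuclei against 63.2, AABR07048482.1 and AABR07048475.1 shared 239 against 165, and AABR07069728.1 and AABR07069733.1 shared 268 against 196. AABR07026377.1 with each of these 5 had ratios from 0.97 to 1.07, close to 1. AC134224.3 was in every rich nucleus by the rule that made them and could give no ratio, but its level went with that of AC134224.1 across rich nuclei, with Pearson r of log values between 0.67 and 0.74 over the 4 libraries, a description over nuclei that share library and depth.

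Beside the named zone genes the same 5 members leaned the same way nucleus by nucleus. In rich nuclei the median ratio over the 12 pericentral genes was 1.42 for AABR07069728.1, 1.39 for AABR07048475.1, 1.26 for AABR07048482.1, 1.18 for AABR07004530.1 and 1.12 for AABR07069733.1, and over the periportal genes 0.66, 0.80, 0.85, 0.84 and 0.89. Glul, the glutamine synthetase of the cells next to the central vein, gave the highest ratio with 3 of them: 1.98 for AABR07069728.1, in 148 nuclei against 74.6, 1.99 for AABR07048475.1, in 48 against 24.1, and 1.64 for AABR07004530.1, in 171 against 104. AABR07048482.1 was met most with Fmo1, at 1.53. AABR07026377.1 had medians of 1.02 with the 13 periportal and 0.97 with the 12 pericentral genes, with 11 of the 13 periportal genes above 1 and Sds, a serine dehydratase, highest at 1.06. Both zone lists were also used for the tertiles, so these values and the tertiles are not separate evidence. With the 10 transcription factors the medians lay between 0.957 and 1.0996 for these 6 members.

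The genes most like each member were taken over 16 sums of library and class in the nuclei, which share 4 libraries, by Pearson r of log2 CPM among 10133 genes. AABR07048482.1 was most like AABR07048487.2, a clone-named gene of a near number (r = 0.966), and Birc2, an inhibitor of apoptosis (0.946). AABR07026377.1 was most like Il1rn, the interleukin 1 receptor antagonist (0.972), Got1, the cytosolic aspartate aminotransferase (0.966), and its neighbour Slc25a15 (0.959). AABR07004530.1 was most like the channel gene Hcn3 (0.917), Cyp2c6v1 (0.914) and the leptin receptor Lepr (0.895), and AABR07069728.1 like the sulfotransferase Sult2a6 (0.930). AABR07048475.1 was most like Gadd45g (0.880) and Met, the receptor of hepatocyte growth factor (0.872), and AABR07069733.1 like Cnep1r1 (0.836). AC134224.1 was most like Zfc3h1 (0.891). For 2 of the 8, AABR07026377.1 and AABR07004530.1, the 3 nearest genes of the 10133 thus included a named gene that lies 1 and 6 rows away in the gene list. For AABR07004530.1 these rows do not establish a shared chromosome. How often other genes have such a neighbour was not counted, so nothing is read from this count. In nuclei of the same 4 libraries, AABR07026377.1 and Slc25a15 were both lower in LEW, and AABR07004530.1 and Cyp2c6v1 both higher. The likeness and the strain differences are thus not separate evidence.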

How the data were processed

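The files deposited by the authors hold unnormalized UMI counts, made with Cell Ranger 3.1.0 (cells and nuclei) and Space Ranger 1.1.0 (sections) on an Ensembl rat reference, and whether intronic reads were counted is not given in the sources used here. Gene names of the TLH and immune-enriched matrices were taken by row, in the order of the 32883 genes listed for the nuclei. The 8 members, and the lists beside them, were chosen with earlier results of these data known. The genes named were the members, the fixed lists, genes of the same clone or of adjoining rows, and the 3 most like each member, of which some are not reported here.

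Nuclei were kept from 1000 UMIs with at most 10% mitochondrial UMIs, TLH cells from 1500 (DA-1) or 2000 UMIs with at most 30% (DA-1), 20% (DA-2) or 40% (LEW), and immune-enriched cells from 1000 with at most 50%. For the LEW TLH cells the study's stated limit is 1500 UMIs, and that limit, which kept 12124 and 7857 cells in place of 5457 and 3844, was run as an alternative. Clusters were made with Seurat 5.3.0 and sctransform 0.4.2 without the members, and named where at least 3 fixed markers stood among the 30 leading genes, or among 200 in a second comparison set with the counts in view. Hepatocyte-like clusters 0, 1, 4, 5, 6, 9 and 14 of nuclei and 4 of TLH cells were named in the first comparison. The other hepatocyte-like clusters of nuclei and TLH cells, which are the greater part, rest on the second. Doublets were left in, and leaving out the 6% of barcodes with the highest Scrublet score was an alternative. Levels are counts summed per rat, class and library, as CPM. Log2 ratios between levels have 1 CPM added, and the background holds genes with a mean of at least 10 CPM (1 CPM on sections). The share of AC134224.3 that makes a barcode rich was set at 2% after the distribution was seen.

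Strain was tested with edgeR 4.0.16 (quasi-likelihood, TMM, Benjamini-Hochberg, adjusted p under 0.05), and the other comparisons are descriptions. DESeq2 1.42.0, other scaling, filters, a replicate block and leaving out each rat were alternatives. On simulated data with 200 genes changed by 2 on the log2 scale, edgeR recovered 80% in nuclei (10616 genes), 93.5% in TLH cells (9879) and 89.5% over both (11560), with 8, 20 and 10 false calls, and 1, 9 and 0 with no gene changed. Each library is 1 rat, and replicates of a strain differed beyond sampling noise (chi-square per degree of freedom 17.5 to 85.0). Same-numbered rats did not deviate together (r = 0.08 in nuclei, -0.15 in TLH cells). Intervals cover counting error only.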

Additional observations from a re-analysis of the deposited data

Results flagged for a closer look

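The direction along the lobule differed between nuclei and sections for 3 members, with every rat on one side of 0 and both sections on the other. The log2 ratio of the pericentral to the periportal tertile was -0.956 over all hepatocyte-like nuclei and 0.260 on Visium for AABR07026377.1. It was -0.812 and 0.987 for AC134224.3, and -0.860 and 0.353 for AC134224.1. Within AC134224.3-rich nuclei it was -0.226 for AABR07026377.1, below 0 in all 4 rats, beside 13.2% of genes that were higher in the periportal tertile in all 4. For AC134224.1 it was -0.123 there, with LEW-1 at -0.002, and for AC134224.3 it was -0.083, with LEW-1 at 0.16, but these nuclei were chosen on the level of AC134224.3, so neither value bears on the zone of the pair. With the zone genes that the study names, each of the 3 was below 0 in 2 of 4 rats. Over all hepatocyte-like nuclei the share of AC134224.3-rich nuclei was also lower in the pericentral than in the periportal tertile in all 4 rats. The difference was not tested, since strain, rats, kit and the material all differ between nuclei and sections and cannot be told apart. The AABR07026377.1 value on sections rests on 10 against 8 and 9 against 6 UMIs, too few to read a direction. That of AC134224.1 rests on 125 against 115 and 104 against 85 UMIs.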

How the results depend on the processing

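No difference called between strains changed direction under the alternatives tried, and no member higher in nuclei without overlap did. With the zone genes that the study names, the zone ratio in nuclei turned from -0.81 to 0.11 for AC134224.3 and from -0.86 to 0.067 for AC134224.1. The count of members higher in nuclei than in cells without overlap was 5, beside 55.2% of all genes, and 8 against immune-enriched cells, beside 67.6%. It ranged from 5 to 8 when each library was left out, with 8 without nuclei of LEW-1, and the share of all genes was not counted in those settings. The count highest in hepatocyte-like nuclei in every library was 0, with 0 to 3 when each rat was left out (3 without LEW-1), 5 in AC134224.3-rich nuclei and 7 there without the deeper clusters, both chosen after seeing the data. Of 28 co-detected pairs, 16 remained above 1 in TLH cells and 13 in rich nuclei, where the pairs with AC134224.3 could not exceed 1. Pericentral counts stayed within 1.5 times, at 4 or 5 in nuclei and 7 or 8 on Visium. The share of all genes was 14.9% over all hepatocyte-like nuclei, 13.6% in rich ones and 33.7% on Visium, and was not counted in the other settings. On Visium the UMIs of AABR07026377.1 and AABR07069733.1 did not allow a difference to be read. Nothing is therefore read from the steadiness of these counts. The count called between strains was 0 in nuclei and 1 with DESeq2 or no filter on low counts, and 0 to 1 when each rat was left out. It was 0 in TLH cells, 0 with the limit of 1500 UMIs for LEW and 1 with DESeq2, and 0 to 1 when each rat was left out. Over both kinds it was 1, and 0 to 1 when each rat was left out. In rich barcodes it was also 1, but AABR07004530.1 and not AABR07026377.1. The difference of AABR07026377.1 ranged from -2.20 to -1.56 over 15 alternatives, with adjusted p from 2.83e-14 to 0.0926, past the threshold in 12.

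With the replicate number as a block, 1 member was called in nuclei, 0 in TLH cells and 1 over both kinds, and calls over all genes went from 131 to 547 in nuclei and from 434 to 198 in TLH cells. With crossed numbers, a block added after seeing the data because same-numbered TLH rats deviated oppositely (r = -0.15), 762 genes and 1 member were called in TLH cells.

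Several strain differences that were not called changed sign. Leaving out each rat, the log2 difference in nuclei ranged from -3.20 to 0.82 for AABR07048482.1, -2.25 to 0.74 for AABR07048475.1, -0.50 to 0.56 for AC134224.3, -0.90 to 0.35 for AC134224.1, -0.25 to 1.11 for AABR07069728.1 and -0.52 to 0.55 for AABR07069733.1. In TLH cells it ranged from -2.21 to 1.03, -0.91 to 0.26, -0.54 to 0.042, -0.20 to 0.37, -0.10 to 0.81 and -0.15 to 0.60 for the same 6, and from -0.035 to 0.81 for AABR07004530.1. Over both kinds it ranged from -1.27 to 0.15 for AABR07048482.1, -1.13 to 0.13 for AABR07048475.1, -0.36 to 0.10 for AC134224.3, -0.31 to 0.18 for AC134224.1 and -0.091 to 0.34 for AABR07069733.1. In rich TLH cells AABR07048482.1 turned to 0.69 and AC134224.3 to 0.49. Over both kinds AC134224.3 and AC134224.1 turned to 0.26 and 0.22 in rich barcodes, and to 0.0279 and 0.0281 with all barcodes summed.

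Over all genes, nuclei gave 251 calls with DESeq2, 519 without a filter, 60 at 1500 UMIs and 5% mitochondrial, 63 in rich barcodes and 279 without DA-2. TLH cells gave 1149 without a filter, 177 in rich barcodes, and 252 without DA-2, 60 without LEW-1 and 103 without LEW-2. Both kinds gave 684, 1189 without a filter, and 415 to 872 when each rat was left out. With 2 rats a strain and few UMIs on sections, small differences were not detectable.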
